A study of Homo sapiens with 12 samples.

Results

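CCDC141, TTN, CHRNA2, ADAM7, ORM1 and ORM2 are 6 of the 56269 gene symbols counted in C4-2, a LNCaP-derived prostate cancer cell line that grows without testicular androgen. They were chosen by symbol from the raw counts, as genes with almost no counts in vehicle and many more with dihydrotestosterone (DHT), so the difference between DHT and vehicle is given as a description, with no test. RNA was sequenced after 48 h of transfection with small interfering RNA (siRNA), 12 h without serum, and 24 h with hormone or solvent. The 4 groups, of 3 libraries each, were siRNA against paxillin with 2.5 nM DHT, nonspecific siRNA with 2.5 nM DHT, siRNA against paxillin with ethanol vehicle, and nonspecific siRNA with ethanol vehicle. All 12 libraries therefore come from siRNA-transfected, serum-starved cells of a single line. The siRNA sequences were not given in the sources used here. Whether the 3 libraries of a group came from separate cultures is not stated, so p-values measure only the spread between these libraries, which may be technical. RNA came from whole cultures, in which fewer cells of a type and less RNA per cell cannot be told apart.

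DHT is a potent androgen. Androgens act through the androgen receptor, which binds chromatin at androgen response elements, where it can turn silent genes into transcribed ones. In prostate luminal cells DHT drives secretory genes such as the kallikreins. Paxillin, encoded by PXN, is an adaptor protein of focal adhesions that also enters the nucleus. The 6 genes belong to other settings. TTN encodes titin, the giant spring of the muscle sarcomere, and CCDC141 next to it encodes a coiled-coil protein with an immunoglobulin domain, known from neuronal migration. CHRNA2 encodes an alpha subunit of the nicotinic acetylcholine receptor, a ligand-gated ion channel of neurons. ADAM7 encodes a membrane protein of the ADAM metalloprotease family that lacks the catalytic residues and is known from the epididymis, an androgen-dependent tissue. ORM1 and ORM2 encode the alpha-1-acid glycoproteins, plasma proteins of the lipocalin family that the liver secretes in the acute phase response.

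Among the 6 are 2 pairs of adjacent genes, given here on GRCh38 with GENCODE 29. CCDC141 (chr2:178829757-179050086) and TTN (chr2:178525989-178830802) are both read from the minus strand, and their spans overlap by 1046 bases. They share 138 exon bases, which is 0.893% of the exon bases of CCDC141 and 0.116% of those of TTN. The antisense gene TTN-AS1 (chr2:178521183-178779963, plus strand) covers 9.57% of the exon bases of TTN and none of those of CCDC141. Of the exon bases of TTN-AS1, 55.1% lie in TTN exons. ORM1 (chr9:114323056-114326475) and ORM2 (chr9:114329869-114333252) follow each other on the plus strand with 3393 bases between them. Their transcripts of 802 and 760 bases were identical at 729 of 760 aligned bases, or 95.9%. Of the 50-base windows of ORM1, 47.4% also occurred in ORM2. Reads can therefore be split between these genes, or left out of both, in a way the deposited counts do not show. How reads matching several places were counted was not given in the sources used here. The strand setting of the counting was not given in the sources used here, so reads of TTN and TTN-AS1 may not be told apart.

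RefSeq promoter windows on GRCh38.p14, from 250 bases before to 50 bases after the annotated start, were matched for 3 of the 6 genes. They are shown because these genes had almost no counts without hormone, and the windows were searched for androgen response and general promoter motifs. CCDC141 lies at chr2:179050088-179050387 (minus strand), TTN at chr2:178807374-178807673 (minus strand) and ORM1 at chr9:114322848-114323147 (plus strand). Each window belongs to the RefSeq start, which differs from the end of the GENCODE 29 span given above. The RefSeq starts of TTN and ORM1 lie inside their spans, and the CCDC141 window lies wholly outside its span. GENCODE 29 lists 12 transcript starts for TTN, the farthest upstream at 178830802, and windows at other starts were not searched. Capitals mark the only motif matches found, a half-site in TTN and a TATA box in ORM1.
CCDC141: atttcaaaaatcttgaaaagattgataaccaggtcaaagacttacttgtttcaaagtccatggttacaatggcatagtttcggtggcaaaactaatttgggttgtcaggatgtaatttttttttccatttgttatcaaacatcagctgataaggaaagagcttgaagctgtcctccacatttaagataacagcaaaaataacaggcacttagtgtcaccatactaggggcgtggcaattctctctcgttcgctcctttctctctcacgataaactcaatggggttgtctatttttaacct
TTN: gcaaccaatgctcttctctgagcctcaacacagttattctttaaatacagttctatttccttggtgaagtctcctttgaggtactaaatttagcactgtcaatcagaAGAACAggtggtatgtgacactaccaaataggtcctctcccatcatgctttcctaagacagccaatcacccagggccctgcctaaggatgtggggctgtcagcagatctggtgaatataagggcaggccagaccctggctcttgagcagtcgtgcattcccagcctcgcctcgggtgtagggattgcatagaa
ORM1: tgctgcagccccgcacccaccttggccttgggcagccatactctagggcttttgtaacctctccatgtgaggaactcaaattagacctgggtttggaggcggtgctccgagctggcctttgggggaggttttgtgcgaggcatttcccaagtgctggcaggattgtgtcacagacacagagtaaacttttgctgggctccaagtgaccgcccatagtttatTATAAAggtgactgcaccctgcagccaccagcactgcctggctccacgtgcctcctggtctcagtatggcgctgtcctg
On both strands, the search used the full element, AGAACA and TGTTCT with any 3 bases between them, its half-site AGAACA, the forkhead motif TGTTTAC and the TATA box TATAAA. A half-site within a full element would count for both. The half-site in TTN begins 143 bases before the RefSeq start, and 14.8% of 35116 promoter windows of the same length hold one. The TATA box in ORM1 begins 29 bases before the RefSeq start, inside the GENCODE 29 span of ORM1, and 11.5% of windows hold one. The full element occurred in 0.00285% of windows and the forkhead motif in 3.42%. None of the 4 motifs occurred in the window of CCDC141. A match is only a match of letters. No window was printed for CHRNA2, ADAM7 and ORM2.

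Library totals ran from 11944906 to 32040465 counts, the lowest being replicate 1 of nonspecific siRNA with vehicle. A single count equalled 0.0328 to 0.0815 CPM (counts scaled to a common library total), calculated on totals scaled by the trimmed mean of M values (TMM). The knockdown checked the labels: PXN stood at 9.36 to 14.2 CPM in paxillin siRNA libraries with DHT, against 121 to 136 CPM in nonspecific siRNA libraries with DHT. In vehicle PXN stood at 12.3 to 16.7 CPM with paxillin siRNA, against 139 to 151 CPM with nonspecific siRNA. All 10 prostate luminal markers were detected in every group. Their sum was 16768 to 17735 CPM with paxillin siRNA and DHT, against 8162 to 9577 CPM in vehicle. With nonspecific siRNA it was 17731 to 18838 CPM with DHT, against 8855 to 10611 CPM in vehicle. The markers did not all rise: edgeR called 6 of the 10 higher and 3 lower with DHT under each siRNA. Over all tested genes, 20.1% and 17.9% were called higher and lower with paxillin siRNA, and 21.6% and 18.9% with nonspecific siRNA. Of the 56269 symbols, 16115 passed the filter on low counts, and all 6 genes passed it in their DHT libraries. CHRNA2 was the only one of them that also passed with the vehicle groups alone.

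CCDC141 was nearly silent without hormone and clearly counted with it. With paxillin siRNA and DHT it had 633, 439 and 484 counts in replicates 1 to 3, and with nonspecific siRNA and DHT 283, 226 and 271. In vehicle it had 1, 1 and 2 counts with paxillin siRNA, and 0, 0 and 1 with nonspecific siRNA. The lowest DHT library thus held 226 counts and the highest vehicle library 2. The level averaged 18.9 ± 1.74 CPM with paxillin siRNA and DHT, against 0.0473 ± 0.0219 CPM in vehicle (SD, n = 3 each). It averaged 10.7 ± 1.23 CPM with nonspecific siRNA and DHT, against 0.0125 ± 0.0217 CPM in vehicle (SD, n = 3 each). The ratio of summed counts per scaled total was 407 with paxillin siRNA, with an exact conditional 95% interval of 159 to 1495. With nonspecific siRNA it was 691, with an interval of 124 to 27339, because the vehicle group held 1 count in all. Such intervals include counting error alone, and reads counted without molecular identifiers need not be independent. The nonspecific ratio was 415 without vehicle replicate 2. Without vehicle replicate 3 no count was left, and the ratio over a floor of 3 counts for the group was 136.

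TTN, the neighbour of CCDC141, showed the same contrast at a lower level. It had 317, 393 and 310 counts with paxillin siRNA and DHT, and 193, 106 and 138 with nonspecific siRNA and DHT. In vehicle it had 1, 1 and 6 counts with paxillin siRNA, and 0, 7 and 3 with nonspecific siRNA. The DHT libraries lay above all vehicle libraries, but the vehicle counts scattered more than those of CCDC141. TTN averaged 12.6 ± 2.59 CPM with paxillin siRNA and DHT, against 0.0956 ± 0.105 CPM in vehicle (SD, n = 3 each). It averaged 6.02 ± 1.97 CPM with nonspecific siRNA and DHT, against 0.128 ± 0.136 CPM in vehicle (SD, n = 3 each). The count ratio of DHT over vehicle was 133 (95% interval 67.4 to 310) with paxillin siRNA and 38.7 (20.9 to 81.3) with nonspecific siRNA. Single vehicle libraries moved these ratios, to 361 without replicate 3 of paxillin siRNA and to 77.6 without replicate 2 of nonspecific siRNA. Because TTN has 118976 exon bases, its level per kilobase of exon was small, 0.106 CPM per kb with paxillin siRNA and DHT and 0.0506 with nonspecific siRNA and DHT. CCDC141 had 1.23 and 0.693 CPM per kb in those groups. Per kilobase, CCDC141 stood 8.6 to 15.4 times above TTN in paxillin siRNA libraries with DHT and 11.3 to 16.4 times above it in nonspecific siRNA libraries with DHT.

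CHRNA2 (chr8:27459761-27479883, minus strand, GRCh38) was the most abundant of the 6 with DHT, both in counts and per kilobase of exon. It had 3784, 3281 and 3866 counts with paxillin siRNA and DHT, and 1397, 1447 and 1726 with nonspecific siRNA and DHT. In vehicle it had 31, 20 and 27 counts with paxillin siRNA, and 7, 5 and 7 with nonspecific siRNA. The 4 groups did not overlap in counts. Its summed vehicle counts, 78 with paxillin siRNA and 19 with nonspecific siRNA, were the highest of the 6 genes, although TTN had more counts in replicate 2 of nonspecific siRNA with vehicle. It averaged 134 ± 13.9 CPM with paxillin siRNA and DHT, against 0.909 ± 0.157 CPM in vehicle (SD, n = 3 each). It averaged 62.5 ± 2.48 CPM with nonspecific siRNA and DHT, against 0.343 ± 0.201 CPM in vehicle (SD, n = 3 each). The count ratio of DHT over vehicle was 147 (95% interval 117 to 186) with paxillin siRNA and 213 (136 to 354) with nonspecific siRNA. Per kilobase it reached 26.6 CPM with paxillin siRNA and DHT and 12.4 CPM with nonspecific siRNA and DHT. With DHT its level stood at the 89.5th percentile of the tested genes with paxillin siRNA and at the 76.7th with nonspecific siRNA. The other 5 genes lay between the 30.1st and 53rd percentiles with paxillin siRNA and between the 27.6th and 44th with nonspecific siRNA.

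ADAM7 (chr8:24440930-24526970, plus strand, GRCh38) lies 2.93 Mb from CHRNA2. It had 201, 124 and 133 counts with paxillin siRNA and DHT, and 151, 134 and 182 with nonspecific siRNA and DHT. In vehicle it had 0, 5 and 0 counts with paxillin siRNA, and 2, 0 and 2 with nonspecific siRNA. The DHT groups overlapped each other and lay far above both vehicle groups. It averaged 5.54 ± 0.914 CPM with paxillin siRNA and DHT, against 0.0608 ± 0.105 CPM in vehicle (SD, n = 3 each). It averaged 6.38 ± 0.498 CPM with nonspecific siRNA and DHT, against 0.0794 ± 0.0816 CPM in vehicle (SD, n = 3 each). The count ratio of DHT over vehicle was 95.8 (95% interval 40.8 to 297) with paxillin siRNA and 103 (40.1 to 381) with nonspecific siRNA. All 5 vehicle counts with paxillin siRNA came from replicate 2. Without it the ratio over the floor of 3 counts was 108, and without vehicle replicate 1 the ratio was 61.7. With nonspecific siRNA the ratio was 168 without vehicle replicate 1 and 62.2 without vehicle replicate 2.

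ORM1 and ORM2 reached similar levels. ORM1 had 137, 88 and 81 counts with paxillin siRNA and DHT, and 67, 72 and 45 with nonspecific siRNA and DHT. In vehicle it had 0, 2 and 1 counts with paxillin siRNA, and 0 in each of the 3 nonspecific siRNA libraries, where the floor of 3 counts over the group allows up to 0.0464 CPM. ORM1 averaged 3.7 ± 0.702 CPM with paxillin siRNA and DHT and 2.56 ± 0.772 CPM with nonspecific siRNA and DHT (SD, n = 3 each). The first of these stood against 0.0364 ± 0.0365 CPM with paxillin siRNA in vehicle. The count ratio of DHT over vehicle was 107 (95% interval 36.2 to 520) with paxillin siRNA. With nonspecific siRNA it was 54.4 over the floor of 3 counts, and the exact 95% interval began at 43.8. The ratio with paxillin siRNA was 68.7 without vehicle replicate 1 and 217 without vehicle replicate 2. With fewer libraries behind the floor, the ratio over it was 32.7 without replicate 2 and 32 without replicate 3 of nonspecific siRNA with vehicle.

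ORM2 had 131, 90 and 55 counts with paxillin siRNA and DHT, and 68, 50 and 65 with nonspecific siRNA and DHT. In vehicle it had 6, 0 and 3 counts with paxillin siRNA, and 2, 0 and 0 with nonspecific siRNA. Here too every DHT library lay above every vehicle library. ORM2 averaged 3.32 ± 1.09 CPM with paxillin siRNA and DHT, against 0.102 ± 0.0988 CPM in vehicle (SD, n = 3 each). It averaged 2.51 ± 0.372 CPM with nonspecific siRNA and DHT, against 0.0543 ± 0.0941 CPM in vehicle (SD, n = 3 each). The count ratio of DHT over vehicle was 32.1 (95% interval 16.7 to 70.9) with paxillin siRNA and 81.1 (22.1 to 675) with nonspecific siRNA. These ratios rest on 9 and 2 vehicle counts. The first was 62 without vehicle replicate 1. The second was 48.7 without vehicle replicate 2, 47.7 without replicate 3 and, over the floor of 3 counts, 43.8 without replicate 1.

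**Figure D1:**
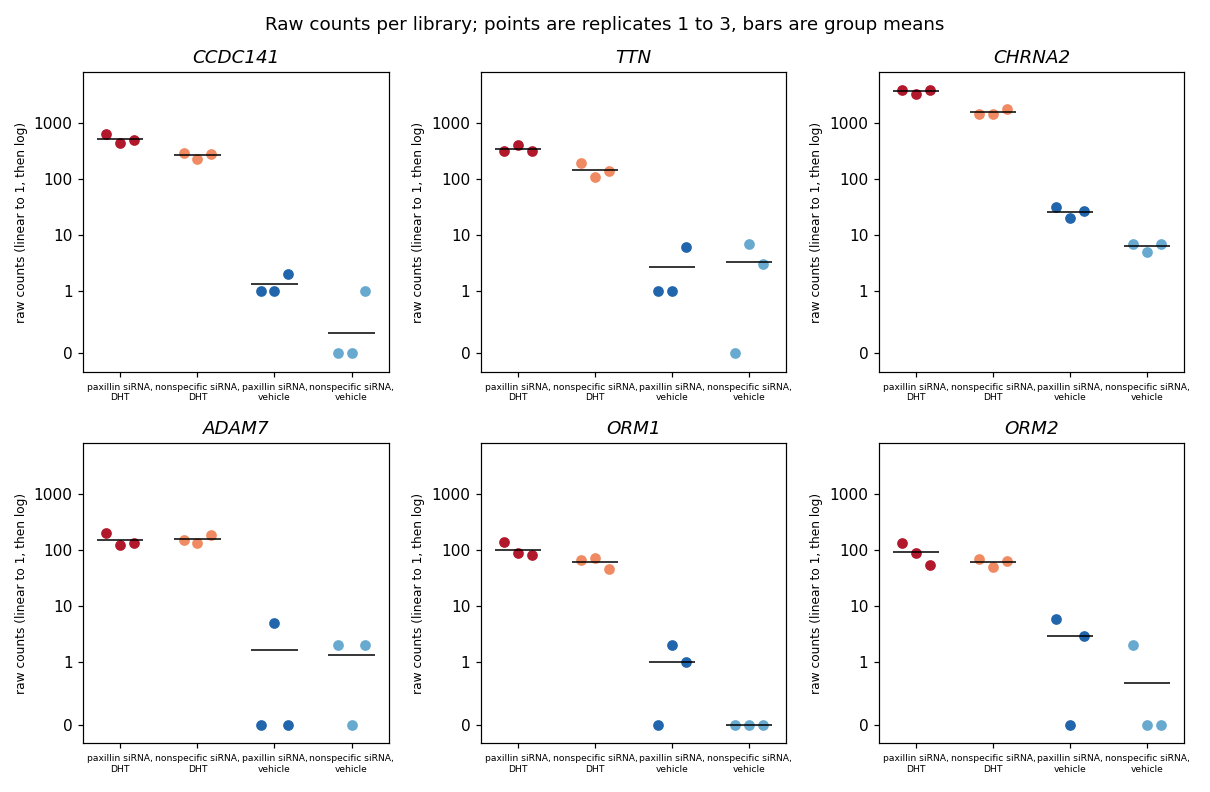
Raw counts of the 6 genes in the 12 libraries, with a vertical axis that is linear to 1 and logarithmic above it. Points are replicates 1 to 3 of each group and bars are group means; CHRNA2 had at least 1397 counts in each DHT library and at most 31 in each vehicle library.

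Every one of the 6 genes had all DHT libraries above all vehicle libraries in CPM. Such separation was seen in 25.3% of tested genes with paxillin siRNA and in 26.3% with nonspecific siRNA, and since the genes were chosen for this contrast nothing is read from their count. Among the 16115 tested genes, the fitted rise ranked 3rd for CCDC141, 11th for CHRNA2, 13th for TTN, 17th for ORM1, 19th for ADAM7 and 41st for ORM2 with paxillin siRNA. With nonspecific siRNA the ranks were 2nd for CCDC141, 3rd for ORM1, 9th for CHRNA2, 20th for ADAM7, 24th for ORM2 and 34th for TTN. The order of genes with so few vehicle counts depends on single reads. The 6 together made up 171 to 191 CPM in paxillin siRNA libraries with DHT, against 1.06 to 1.41 CPM in vehicle. With nonspecific siRNA they made up 88.7 to 92.5 CPM with DHT, against 0.465 to 0.897 CPM in vehicle. CHRNA2 supplied 72.7% to 78.4% of their counts with paxillin siRNA and DHT and 64.7% to 71.1% with nonspecific siRNA and DHT.

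The rule that chose these genes did not use the comparison of siRNAs, though earlier results of these data were known. That comparison was tested over all 16115 genes. Under DHT, CHRNA2, TTN and CCDC141 were higher with paxillin siRNA than with nonspecific siRNA by edgeR's quasi-likelihood test with Benjamini-Hochberg adjustment, CHRNA2 and TTN by about the same fold. CHRNA2 stood at 124, 129 and 150 CPM with paxillin siRNA, against 59.8, 63.1 and 64.7 CPM with nonspecific siRNA. The fold change of CHRNA2 was 2.15 (95% interval 1.91 to 2.42; log2 1.1 ± 0.08 SE; edgeR adjusted p = 4.39e-07). The lowest library with paxillin siRNA lay well above the highest with nonspecific siRNA.

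TTN stood at 10.4, 15.5 and 12 CPM with paxillin siRNA and DHT, against 8.27, 4.62 and 5.17 CPM with nonspecific siRNA and DHT. Its fold change was 2.1 (95% interval 1.5 to 2.92; log2 1.07 ± 0.23 SE; edgeR adjusted p = 0.00462). The groups did not overlap, but the ratios of same-numbered libraries spread widely, at 1.26, 3.35 and 2.33. CCDC141 stood at 20.7, 17.3 and 18.8 CPM with paxillin siRNA and DHT, against 12.1, 9.85 and 10.2 CPM with nonspecific siRNA and DHT. Its fold change was 1.77 (95% interval 1.48 to 2.11; log2 0.82 ± 0.12 SE; edgeR adjusted p = 0.000281). Its same-numbered libraries gave nearly equal ratios, 1.71, 1.75 and 1.85, as did those of CHRNA2, 2.07, 2.05 and 2.32.

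ADAM7, ORM1 and ORM2 did not pass the test. ADAM7 stood at 6.59, 4.88 and 5.17 CPM with paxillin siRNA and DHT, against 6.47, 5.84 and 6.82 CPM with nonspecific siRNA and DHT. The fold of ADAM7 was 0.871 with a 95% interval of 0.621 to 1.22 (log2 -0.2 ± 0.23 SE, edgeR adjusted p = 0.63), an interval that lies below the folds of CHRNA2, TTN and CCDC141. ORM1 stood at 4.49, 3.46 and 3.15 CPM with paxillin siRNA and DHT, against 2.87, 3.14 and 1.69 CPM with nonspecific siRNA and DHT. These groups touch without overlapping, and the fold was 1.45 (95% interval 0.995 to 2.13; log2 0.54 ± 0.26 SE; edgeR adjusted p = 0.19). ORM2 stood at 4.29, 3.54 and 2.14 CPM with paxillin siRNA and DHT, against 2.91, 2.18 and 2.44 CPM with nonspecific siRNA and DHT. The fold of ORM2 was 1.33 (95% interval 0.84 to 2.11; log2 0.41 ± 0.31 SE; edgeR adjusted p = 0.432). These intervals include no change as well as a doubling for ORM1 and ORM2, so the missed threshold does not show that the siRNAs acted alike. With the counts of ORM1 and ORM2 summed, the log2 change was 0.48 ± 0.22 SE (edgeR adjusted p = 0.17). Summing removes the question of how reads were split, but not that of reads left out of both genes.

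In all, 3 of the 6 genes passed the test under DHT and all 3 were higher, against 6.34% of all tested genes called higher and 7% called lower. Groups were separated with paxillin siRNA higher in 4 of the 6, against 16.1% of all tested genes. The choice of genes with results known limits what these counts can show.

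**Figure D2:**
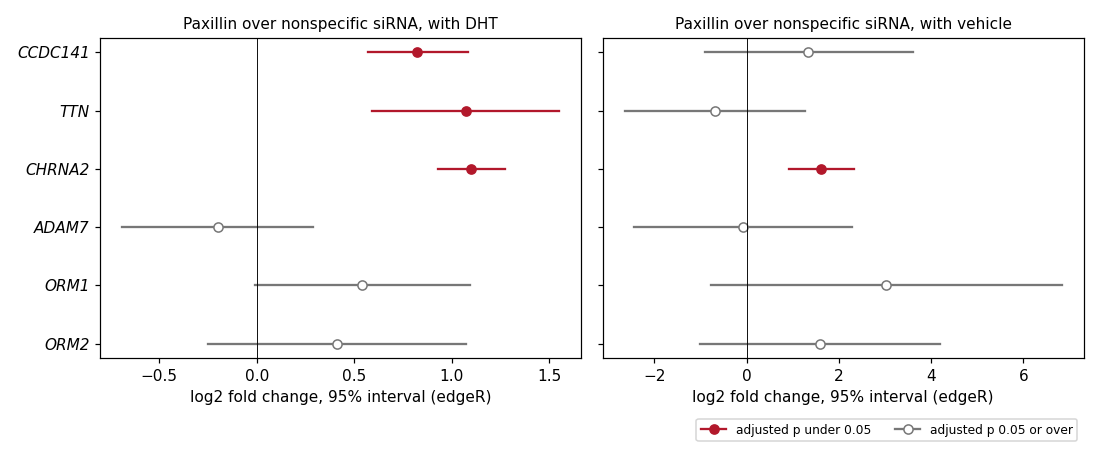
Log2 fold change of paxillin over nonspecific siRNA for the 6 genes, with DHT on the left and with vehicle on the right, on axes of different range. Points are edgeR estimates and bars are 95% intervals. Filled points have an adjusted p under 0.05, which holds for CCDC141, TTN and CHRNA2 with DHT and for CHRNA2 with vehicle. Nothing is read from the open points with vehicle, whose genes were chosen for having almost no vehicle counts.

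In vehicle, CHRNA2 was the gene with enough counts for a comparison. It stood at 1.02, 0.729 and 0.978 CPM with paxillin siRNA, against 0.571, 0.194 and 0.263 CPM with nonspecific siRNA, and the groups did not overlap. CHRNA2 was 3.06-fold higher with paxillin siRNA (95% interval 1.88 to 5; log2 1.61 ± 0.34 SE; edgeR adjusted p = 0.00265). The summed counts were 78 with paxillin siRNA and 19 with nonspecific siRNA, a ratio per scaled total of 3.11. The 95% counting interval of that ratio, 1.86 to 5.43, was wider than the fitted interval. CHRNA2 was called in vehicle, where 10.7% of tested genes were called higher. Its groups were separated, as they were with paxillin siRNA higher in 18.1% of tested genes. Nothing is read from its being the only one of the 6 called or separated. The other 5 had at most 10 counts in a vehicle group. CCDC141 had 4 vehicle counts with paxillin siRNA against 1 with nonspecific siRNA, and TTN had 8 against 10. ADAM7 had 5 against 4, ORM1 3 against 0 and ORM2 9 against 2. A difference between the siRNAs was not detectable at this depth in these 5 genes. They were chosen for near 0 vehicle counts, so their counts are a description and no p-value is given.

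The interaction asked whether the DHT response itself differed between the siRNAs. It was called in 0 of the 6 genes by edgeR, in which 0 had an unadjusted p under 0.05. DESeq2 also called 0, but gave an adjusted p for only 1 of the 6, CHRNA2, and 1 gene, TTN, had an unadjusted p under 0.05 there. Over all genes 8 of 16115 were called, or 0.0496%. The 6 genes were chosen on the same DHT and vehicle values, and all but CHRNA2 passed the filter only through their DHT libraries. Nothing is therefore read from the 0 of 6 or from the unadjusted p of TTN, and the values that follow are a description. CHRNA2, whose vehicle counts give the most to work with, had an interaction of -0.51 ± 0.36 SE on the log2 scale (95% interval -1.26 to 0.24). For TTN it was 1.75 ± 0.99 SE (95% interval -0.32 to 3.83). It moved to 0.79 without replicate 2 of nonspecific siRNA with vehicle and to 3.06 without replicate 3 of paxillin siRNA with vehicle. The fitted intervals of the others were wide, from -2.41 to 1.37 for CCDC141 and from -6.13 to 1.16 for ORM1. Even these can be too narrow. For CCDC141, counting error alone left the vehicle ratio of paxillin over nonspecific siRNA between 0.3 and 149. Large differences in response could not be detected at this depth. The comparisons of siRNA under DHT and the interaction share the DHT libraries.

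Within each neighbouring pair, the split of counts between partners was compared over the DHT libraries. CCDC141 took 66.6%, 52.8% and 61% of the counts of CCDC141 and TTN with paxillin siRNA, against 59.5%, 68.1% and 66.3% with nonspecific siRNA. The ranges overlapped, and the mean share was 60.1% ± 6.97 with paxillin siRNA and 64.6% ± 4.54 with nonspecific siRNA (SD, n = 3 each; difference -4.48 points, two-sided exact permutation test without pairing, p = 0.6). The lowest share, in replicate 2 of paxillin siRNA, had an exact binomial 95% interval of 49.3% to 56.2%. It overlapped only the interval of replicate 1 with nonspecific siRNA, 54.9% to 63.9%. ORM1 took 51.1%, 49.4% and 59.6% of the counts of ORM1 and ORM2 with paxillin siRNA, against 49.6%, 59% and 40.9% with nonspecific siRNA. Its mean share was 53.4% ± 5.42 with paxillin siRNA and 49.9% ± 9.06 with nonspecific siRNA (SD, n = 3 each; difference 3.52 points, two-sided exact permutation test without pairing, p = 0.5). With 3 libraries against 3 the smallest possible p is 0.1. Neither test could therefore have passed, and the differences in mean share were smaller than the SD of either group.

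**Figure D3:**
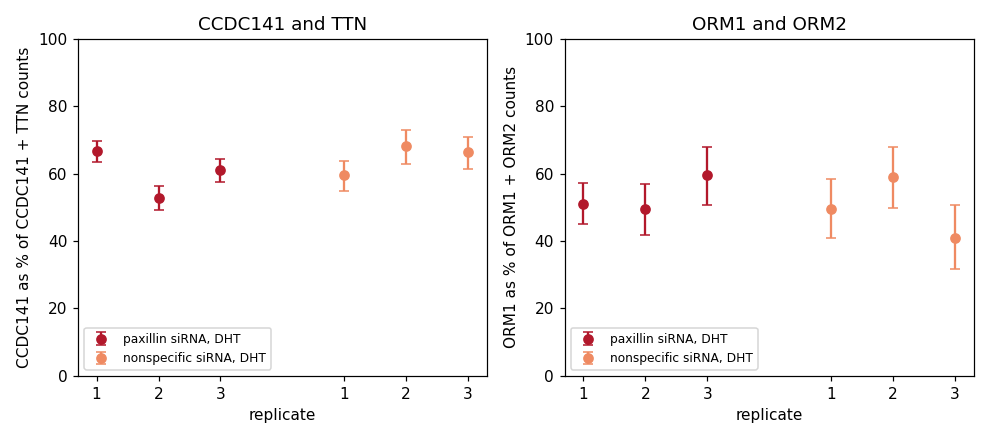
Share of counts taken by CCDC141 in the pair CCDC141 and TTN (left) and by ORM1 in the pair ORM1 and ORM2 (right), in percent, in each DHT library. Points are libraries and bars are exact binomial 95% intervals; the ranges of paxillin siRNA and nonspecific siRNA overlap in both pairs, at 52.8% to 66.6% and 59.5% to 68.1% on the left.

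Tested genes beside the 6 changed far less with DHT, with log2 changes of at most 1.98 in size. TTN-AS1, on the opposite strand within TTN, averaged 4.42 and 5.25 CPM with DHT under paxillin and nonspecific siRNA, against 4.24 and 5.38 CPM in vehicle. Its log2 change with DHT was 0.06 ± 0.15 SE with paxillin siRNA (edgeR adjusted p = 0.796) and -0.03 ± 0.15 SE with nonspecific siRNA (adjusted p = 0.898). TTN averaged 12.6 and 6.02 CPM in the same DHT libraries, and reads of TTN and TTN-AS1 may not be told apart where their exons overlap. SESTD1, the next coding gene beyond CCDC141 among those listed, fell with DHT by 0.36 with paxillin siRNA (adjusted p = 0.0119) and by 0.46 with nonspecific siRNA (adjusted p = 0.0026) on the log2 scale. Of the 8 tested genes around titin, 3 were called higher and 1 lower with DHT under paxillin siRNA, and 1 higher and 2 lower under nonspecific siRNA. Over all tested genes 20.1% and 17.9% were called higher and lower with paxillin siRNA, and 21.6% and 18.9% with nonspecific siRNA. ZNF385B, a zinc finger gene, had the largest rise, with log2 changes of 1.56 with paxillin siRNA (adjusted p = 6.37e-09) and 1.98 with nonspecific siRNA (adjusted p = 5.13e-10). FKBP7, a peptidyl-prolyl isomerase of the endoplasmic reticulum, fell by 0.78 on the log2 scale with nonspecific siRNA (adjusted p = 0.00241). FKBP7 was also the only one of the 8 called for paxillin siRNA under DHT, where its log2 change was 0.67 (adjusted p = 0.0198). The median log2 change of these 8 was 0.15 with paxillin siRNA and 0.01 with nonspecific siRNA, against -0.01 over all tested genes in each.

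Around CHRNA2 and ADAM7, 7 of 9 listed neighbours were tested, of which 1 was called higher and 3 lower with DHT under paxillin siRNA, and 1 higher and 2 lower under nonspecific siRNA. ADAM28, an ADAM gene in the same chromosomal region as ADAM7, was the one that rose, to 1.19 CPM with paxillin siRNA and DHT against 0.305 CPM in vehicle, and to 0.546 CPM with nonspecific siRNA and DHT against 0.142 CPM in vehicle. Its log2 changes were 1.95 ± 0.43 SE with paxillin siRNA (edgeR adjusted p = 0.00147) and 1.8 ± 0.58 SE with nonspecific siRNA (adjusted p = 0.0181). PTK2B, a focal adhesion kinase relative beside CHRNA2, fell with DHT by 0.4 on the log2 scale with paxillin siRNA (adjusted p = 0.00145) and by 0.53 with nonspecific siRNA (adjusted p = 0.000115). Under DHT it was higher with paxillin siRNA than with nonspecific siRNA, by 0.46 on the log2 scale (adjusted p = 0.00205). SCARA3, a scavenger receptor gene, fell with DHT by 0.96 with paxillin siRNA (adjusted p = 2.76e-05) and by 0.86 with nonspecific siRNA (adjusted p = 0.000125). CLU, which encodes clusterin, fell by 0.57 with paxillin siRNA (adjusted p = 0.00932). Around ORM1 and ORM2, 5 of 6 were tested, and 1 was called higher and 1 lower with paxillin siRNA, and 2 higher and 2 lower with nonspecific siRNA. ATP6V1G1, a subunit of the vacuolar proton pump, rose by 0.41 on the log2 scale with paxillin siRNA and by 0.48 with nonspecific siRNA, and KIF12, a kinesin, fell by 1.15 with paxillin siRNA and by 1.29 with nonspecific siRNA. With nonspecific siRNA AKNA also rose, by 0.42, and the collagen gene COL27A1 fell by 1.96. For paxillin siRNA under DHT, edgeR called 0 of these 5 and DESeq2 1, and 1 had an unadjusted p under 0.05.

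The families of these genes are described by counts. Of all tested genes, 20.1% were called higher and 17.9% lower with DHT under paxillin siRNA, and 21.6% higher and 18.9% lower under nonspecific siRNA. Of 34 sarcomere genes other than TTN, 10 were tested, and the 24 others had at most 13 counts in any library. With DHT, 1 was called higher and 1 lower under each siRNA, and the median log2 change was -0.13 with paxillin siRNA and -0.34 with nonspecific siRNA. MYBPC1, a myosin-binding protein of slow muscle that binds titin, was the one that rose. It averaged 38.8 CPM with paxillin siRNA and DHT against 2.1 CPM in vehicle, and 24.2 CPM with nonspecific siRNA and DHT against 1.26 CPM in vehicle. Its log2 changes with DHT were 4.2 ± 0.17 SE with paxillin siRNA (adjusted p = 1.52e-12) and 4.36 ± 0.2 SE with nonspecific siRNA (adjusted p = 1.05e-11). Under DHT, MYBPC1 was also higher with paxillin siRNA, by 0.68 ± 0.13 SE on the log2 scale (edgeR adjusted p = 0.00229), the only sarcomere gene on this list called in that comparison. The members that fell were MYOM1 with paxillin siRNA, by 0.82 on the log2 scale (adjusted p = 0.0448), and MYOZ1 with nonspecific siRNA, by 2.29 (adjusted p = 0.00284).

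Of 15 other nicotinic receptor subunits, 7 were tested, 0 were called higher with DHT under either siRNA by edgeR, and 1 and 2 were called lower with paxillin and nonspecific siRNA. CHRNA7 fell by 1.84 on the log2 scale with paxillin siRNA (adjusted p = 0.00136) and by 1.6 with nonspecific siRNA (adjusted p = 0.00143), and CHRNA3 fell by 1.55 with nonspecific siRNA (adjusted p = 0.014). DESeq2 likewise called 1 and 2 subunits, and 2 and 3 had an unadjusted p under 0.05 in edgeR. For paxillin siRNA under DHT, edgeR and DESeq2 called 0 of the 7, and 2 had an unadjusted p under 0.05. Of 20 other ADAM genes, 11 were tested, with 3 called higher and 4 lower with DHT under paxillin siRNA and 2 higher and 2 lower under nonspecific siRNA. Beside ADAM28, ADAM9 rose by 0.71 on the log2 scale with paxillin siRNA and by 0.64 with nonspecific siRNA, and ADAM22 fell by 0.99 with paxillin siRNA and by 0.97 with nonspecific siRNA. For paxillin siRNA under DHT, ADAM22 was higher (log2 0.72, adjusted p = 0.00162) and ADAM9 lower (log2 -0.34, adjusted p = 0.0272). Of 25 other acute phase genes, only HPX, SERPINA3 and TTR were tested, and edgeR and DESeq2 called 0 of these 3 for DHT or for paxillin siRNA, with 0 at an unadjusted p under 0.05. The 22 others had at most 14 counts in any library. Among 16 other lipocalins, 5 were tested, and APOD, a carrier of small lipids, rose by 1.13 with paxillin siRNA (adjusted p = 0.00035) and 1.3 with nonspecific siRNA (adjusted p = 5.18e-05) on the log2 scale. Under DHT, APOD fell by 0.8 with paxillin siRNA (adjusted p = 0.00896). With DHT, LCN12 fell by 1.07 on the log2 scale with paxillin siRNA and by 1.29 with nonspecific siRNA, and LCN2 fell by 1.6 with nonspecific siRNA.

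The tissues these genes are best known from left few counts. Skeletal and cardiac muscle markers summed to 0.777 to 0.866 CPM with paxillin siRNA and DHT, 0.567 to 0.9 CPM with nonspecific siRNA and DHT, 0.511 to 0.625 CPM with paxillin siRNA in vehicle and 0.376 to 0.659 CPM with nonspecific siRNA in vehicle. Of these 10 markers, MYL2 and MYOG had 0 counts in all 12 libraries, and TNNT2, with 50 and 19 counts in the DHT groups and 28 and 7 in the vehicle groups, was the only one tested. Under DHT the log2 change of TNNT2 with paxillin siRNA was 1.21 ± 0.41 SE (edgeR adjusted p = 0.0609). Hepatocyte markers summed to 3.83 to 6.29 CPM with paxillin siRNA and DHT, 2.87 to 4.72 CPM with nonspecific siRNA and DHT, 4.18 to 5.36 CPM with paxillin siRNA in vehicle and 3.26 to 4.15 CPM with nonspecific siRNA in vehicle. Most of this was TTR and APOA1, while ALB had 0 and 5 counts over the DHT groups and 5 and 10 over the vehicle groups. Neuron markers summed to 2.64 to 5.74 CPM with paxillin siRNA and DHT, 4.2 to 6.62 CPM with nonspecific siRNA and DHT, 2.07 to 3.29 CPM with paxillin siRNA in vehicle and 3.16 to 4.96 CPM with nonspecific siRNA in vehicle, mostly from SYP. SYP was called higher with DHT (log2 0.9, edgeR adjusted p = 0.0289 with paxillin siRNA; log2 0.86, adjusted p = 0.0301 with nonspecific siRNA), RBFOX3 had 0 counts in both DHT groups, and the part of these markers in the rise of CHRNA2 and CCDC141 was not tested. Leukocyte markers summed to 0.669 to 0.885 CPM with paxillin siRNA and DHT, 0.305 to 0.386 CPM with nonspecific siRNA and DHT, 0.146 to 0.362 CPM with paxillin siRNA in vehicle and 0.0775 to 0.408 CPM with nonspecific siRNA in vehicle. That sum moved with the siRNA under DHT as CHRNA2, TTN and CCDC141 did; it came mainly from ITGAM and LYZ, PTPRC and CD3E were at 0 in both DHT groups, and its part in those results was not tested.

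The 6 genes were then placed among all genes that meet a like description. A mean under 1 CPM in both vehicle groups and a ratio of at least 10 under both siRNAs, with a vehicle group under 3 counts set at 3, was met by 61 of the 56269 symbols, the 6 among them. Ordered by the smaller of both ratios, CCDC141 was 1st, CHRNA2 4th, ADAM7 6th, ORM1 10th, TTN 12th and ORM2 13th. The 6 largest rises among the 55 others were SLC2A3, a glucose transporter, SLC26A3, a chloride and bicarbonate exchanger, STEAP4, a metalloreductase, SNAI2, a zinc finger repressor of epithelial genes, SLC38A4, an amino acid transporter, and DOCK8, an exchange factor for small GTPases. SLC26A3 had 0 counts in both vehicle groups and averaged 7.29 CPM with paxillin siRNA and DHT and 6.92 CPM with nonspecific siRNA and DHT. Of these, STEAP4 had the highest fold with paxillin siRNA under DHT, with 39.5 CPM with paxillin siRNA and DHT against 20 CPM with nonspecific siRNA and DHT (log2 0.98 ± 0.11 SE, edgeR adjusted p = 4.53e-05). SNAI2 was also higher with paxillin siRNA under DHT (log2 0.78 ± 0.23 SE, adjusted p = 0.0336), while SLC2A3, SLC26A3, SLC38A4 and DOCK8 did not pass the test. Of the 55, 10 were called higher and 2 lower with paxillin siRNA under DHT, where 6.34% of all tested genes were called higher and 7% lower. Their median log2 change was 0.35, against 0 over all tested genes. The 55 were picked by their DHT and vehicle means in the same libraries that give the siRNA comparison. Their shares and median are therefore a description. The 2 lower ones, named after their values were seen, were NPPC (log2 -1.04) and CYP11A1 (log2 -1.07). CHRNA2, TTN and CCDC141 were thus not alone among such genes in being higher with paxillin siRNA, nor was ADAM7 in not passing the test.

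**Figure D4:**
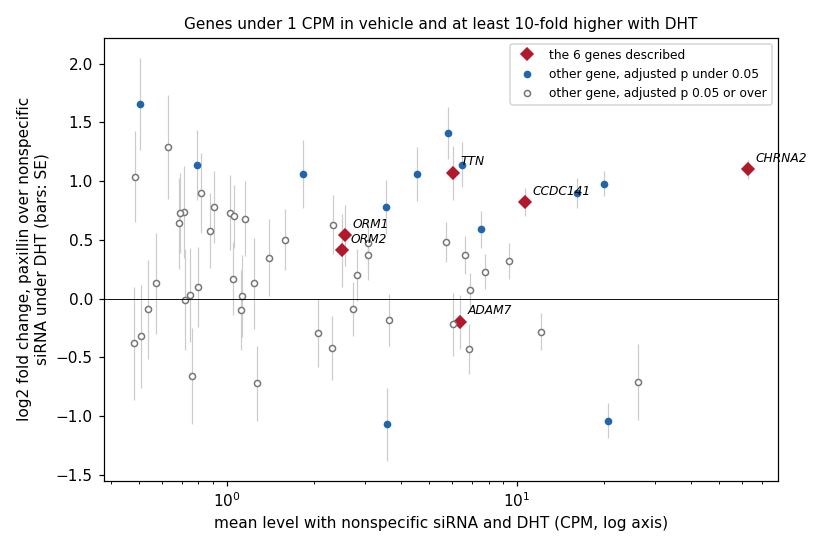
Log2 fold change of paxillin over nonspecific siRNA under DHT, with SE bars, against mean CPM with nonspecific siRNA and DHT on a log axis, for the 61 genes under 1 CPM in vehicle and at least 10-fold higher with DHT. Diamonds are the 6 genes described; filled circles are the 12 other genes with an adjusted p under 0.05, of which 10 lie above 0 and 2 below.

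The profile of each gene over the 12 libraries was set against all other tested genes by Pearson's r of log2 CPM with a prior count of 2. These values describe likeness over libraries that share the hormone contrast and carry no test. CCDC141 was most like GNMT, a glycine methyltransferase (r = 0.998), GSR, glutathione reductase (0.997), and HSD17B4, a peroxisomal enzyme (0.997). TTN was most like IDH1, cytosolic isocitrate dehydrogenase (r = 0.989), RP4-718N17.2 (0.988) and SNAI2 (0.987). CHRNA2 was most like SLC35F2, a solute carrier (r = 0.997), ACSL3, a fatty acid activating enzyme (0.995), and THUMPD1 (0.995). ADAM7 was most like HN1L (r = 0.992), the kinase STK17B (0.990) and NFKBIA, an inhibitor of NF-kappaB (0.987). ORM1 was most like GSR (r = 0.995), MICAL1 (0.994) and RP1-288H2.2 (0.994), and ORM2 was most like POLR3E, an RNA polymerase subunit (r = 0.988), KLHL29 (0.987) and BMPR1B, a BMP receptor (0.986). Likeness in r is not likeness in size: GSR, closest to ORM1, averaged 447 and 417 CPM with DHT against 230 and 208 CPM in vehicle, under paxillin and nonspecific siRNA in each case.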

How the data were processed

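RNA of C4-2 cells was measured in 12 libraries made, per the labels' protocols, with a TruSeq kit for stranded mRNA. The authors deposited raw counts per gene symbol. Per the submitters' processing notes the tools were Trimmomatic 0.36, STAR 2.5.2b and featureCounts of Subread 1.5.0p3 on GRCh38. Annotation release, strand setting and the handling of reads matching several places were not given in the sources used here.

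Counts were filtered with filterByExpr (minimum count 10, minimum total 15), scaled by TMM and fitted with edgeR 4.0.16 in R 4.3.3 by the quasi-likelihood test over 4 group means and all 12 libraries. A call is an adjusted p under 0.05 (Benjamini-Hochberg over 16115 genes). CPM use TMM-scaled totals. Library totals of 11944906 to 32040465 counts set the precision. A group with 0 counts was set at a floor of 3 counts, which leaves out counting error in the DHT libraries. Count ratios carry exact conditional binomial 95% intervals. The SE of an edgeR log2 change was its size divided by the square root of the F statistic. Fitted 95% intervals were built on that SE. Where counts are few, both are approximate and can be too narrow. The alternatives tried were scaling by RLE or upper quartile, no filter, DESeq2 1.42.0, the replicate block, the compared groups alone, leaving out each library, and, chosen after seeing the data, ORM1 and ORM2 summed.

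Genes and lists were chosen with earlier results of these data known. Named genes were the 6 described, up to 3 called genes per list and direction in the DHT comparisons (neighbours and PXN beside them), the 6 largest rises of other near-silent genes and the 3 most alike genes for each of the 6; list genes called for paxillin siRNA under DHT, TTN-AS1 and TNNT2 are given besides. The result of a marker gene is not reported here. Replicate numbers are shared by the groups in the labels: over 8078 genes, the 18 same-numbered pairs correlated at 0.19 to 0.51 in their deviations from group means (median 0.29), and the 36 other pairs at -0.46 to 0.27, so the numbers were taken to pair the samples. The main fit and the share tests did not use this pairing, so the p-values and SE in Results ignore it. It entered the replicate block and the ratios of same-numbered libraries. Replicates differed beyond sampling noise (chi-square per degree of freedom 6.16 to 18.6), so all libraries were counted.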

Additional observations from a re-analysis of the deposited data

How the results depend on the processing

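The number of the 6 genes called for paxillin siRNA was 3 under DHT and 1 in vehicle under other scalings, no filter, DESeq2, the replicate block, the compared groups alone and each of the 12 leave-outs, although CHRNA2 was the only one tested with the vehicle groups alone. The interaction was called in 0 of the 6 under the same alternatives except the compared groups alone, which cannot give it, and DESeq2 gave an adjusted p for 1 of the 6. The replicate block, which follows the pairing of numbers, changed no call among the 6. The adjusted p under DHT ranged from 1.53e-08 to 0.00343 for CCDC141, from 2.8e-10 to 0.0381 for TTN and from 4.54e-43 to 1.91e-05 for CHRNA2, and that of CHRNA2 in vehicle from 2.8e-05 to 0.0283. With the replicate block, 7437 genes were called for DHT with nonspecific siRNA and 7067 with paxillin siRNA. Leaving out a library gave 5503 to 6714 and 5139 to 6363 genes in these comparisons. Directions turned only among genes with few vehicle counts. Leaving out a library put the log2 change with paxillin siRNA in vehicle between -3.76 and 0.57 for ADAM7, including 0.57, 0.14, 0.52 and 0.46 without nonspecific vehicle replicates 1 and 3 and paxillin vehicle replicates 1 and 3, and between -2 and 0.28 for TTN, with 0.28 without nonspecific vehicle replicate 2. The interaction ran from -2.57 to 0.06 for CCDC141, from -0.77 to 3.56 for ADAM7 and from 0.79 to 3.06 for TTN, with 0.06 and 0.56 without nonspecific vehicle replicate 2 and 3.56 without paxillin vehicle replicate 2. The ORM1 share differed by -0.951 to 8.1 points between the siRNAs under DHT, and was -0.951 without replicate 3 of nonspecific siRNA; the cause was not tested. The near-silent description was met by 36 genes with a limit of 0.1 CPM and 10-fold, 3 of the 6 among them, and by 11 with 1 CPM and 50-fold, 4 of the 6 among them, since these limits are narrower. Vehicle counts of 0 to 31 per library limit every DHT ratio given.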
